A study of Mus musculus with 16 samples.

Results

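The contractile genes of vascular smooth muscle were followed in the brains of mice that lose pericytes, over cortex and thalamus of both genotypes. The set was defined by symbol (Acta2, Tagln, Myh11, Cnn1, Myl9, Mylk, Des, Lmod1, Tpm2 and Itga7), and 9 of the 10 genes were found among the 21804 genes of the deposited count table. Myh11, the smooth muscle myosin heavy chain, was not analysed here. The mice were 4 months old, on a C57BL/6 strain, and carried either 1 or 2 copies of the Pdgfb retention allele, written ret/wt and ret/ret. Both genotypes therefore carried the allele, and no mouse without it was part of the comparison. Each of 8 animals, 4 per genotype, gave a cortex and a thalamus library of polyA-selected RNA, so 16 libraries formed 4 groups of 4. In ret/ret thalamus the pieces taken were autofluorescent calcifications picked out under a stereomicroscope, per the labels, while the matching region was cut out in ret/wt animals. Genotype and way of dissection cannot be told apart in that region. Cortex was free of calcifications in both genotypes.

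Arteries and arterioles are wrapped by smooth muscle cells, which contract through smooth muscle actin and myosin. Capillaries carry pericytes instead, which belong to the same mural cell lineage but hold little of the contractile apparatus. Endothelial cells secrete PDGF-B, and its retention motif keeps it near the vessel wall, where it recruits mural cells that carry the receptor PDGFRB. Mice that lack the motif on both alleles have too few brain pericytes. The question put to the data was whether the contractile genes followed the genes of pericytes.

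The libraries held 13415391 to 29135064 counts, and mitochondrial genes took 3.22% to 12.07% of them. All levels below are CPM, the counts scaled to a common library total after TMM scaling over the 16 libraries. The cortex libraries of 2 animals stood apart by genes of the cerebellum: the summed level of 10 such genes was 1942 CPM in ret/wt cortex replicate 3 and 4504 CPM in ret/ret cortex replicate 2, while the other 6 cortex libraries held 18.2 to 57.6 CPM. The thalamus libraries of these animals held 2067 and 2193 CPM of 6 thalamus neuron genes, against 137 to 494 CPM in the other thalamus libraries. The part of this difference in the contractile gene values was not tested. The same 2 animals were the ones with reads of the Y-linked gene Ddx3y, at 55.2 CPM or more against 0.22 CPM or less in the others, and counts are given with and without them. Ret/wt cortex replicate 4 held 1163 CPM of 10 choroid plexus genes, against 10.9 to 70.1 CPM in the other cortex libraries. Genes of striated muscle, which share parts of the contractile apparatus, summed to 2.89 to 16.7 CPM over the 9 that were found. In whole tissue, fewer cells of a type and less RNA per cell cannot be told apart.

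None of the contractile genes passed the test between genotypes in either region. Of the pericyte genes, 0 of 16 passed in thalamus and 1 of 14 in cortex, and most had lower estimates in ret/ret. In thalamus 9 contractile genes passed the filter on low counts, of which 3 had higher and 6 lower estimates in ret/ret, where 47.1% of all genes had higher ones. In cortex 8 passed, of which 5 were higher and 3 lower, where 51.9% of all genes were higher. With edgeR (quasi-likelihood test, Benjamini-Hochberg adjusted p under 0.05), 0 of 9 and 0 of 8 were called, where 0% of all 14767 genes tested in thalamus and 0.021% of all 14288 in cortex were called. At an unadjusted p under 0.05 the counts were 1 of 9 in thalamus (Itga7) and 0 of 8 in cortex, where 3.93% and 3.77% of all genes were past that threshold. The genotype groups did not overlap for 1 of 9 in thalamus (Itga7) and 0 of 8 in cortex, where this held for 2.73% and 2.32% of all genes. The median log2 fold change, ret/ret over ret/wt, was -0.24 over the contractile genes in thalamus and 0.21 in cortex, against -0.02 and 0.01 over all genes tested. Without the 2 animals above, 3 contractile genes were higher and 6 lower in thalamus, and 3 were higher and 4 lower of the 7 tested in cortex, with medians of -0.08 and -0.15. The split in thalamus rested on single libraries: without ret/wt thalamus replicate 4 it was 7 higher and 2 lower, with a median of 0.53, and without ret/ret thalamus replicate 2 it was 6 higher and 3 lower, with a median of 0.14. It was 5 higher and 4 lower without ret/ret thalamus replicate 3 (median 0.06). In cortex the median turned to -0.27 without ret/ret cortex replicate 2, with 3 higher and 5 lower, and to -0.05 without ret/ret cortex replicate 1.

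**Figure D1:**
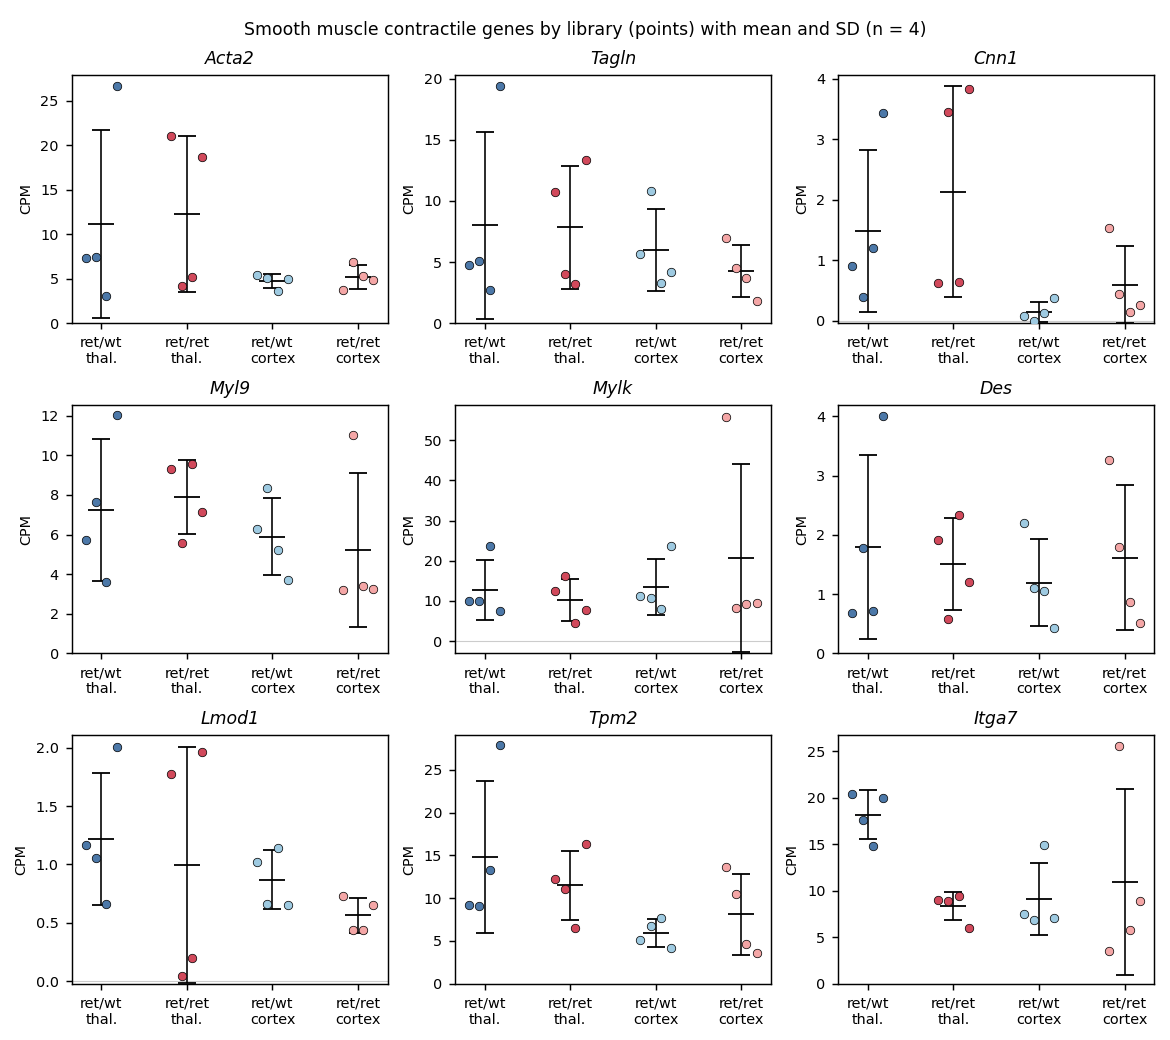
Level of each of the 9 contractile genes in CPM (vertical axis) in the 4 groups (horizontal axis); each point is a library in replicate order from left to right, and the bar and whiskers are the mean and SD of 4 libraries. Only Itga7 in thalamus has genotype groups that do not overlap, with 14.8 to 20.4 CPM in ret/wt and 6.04 to 9.41 CPM in ret/ret.

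Among the pericyte genes, Rgs5 was the one that passed the test in cortex; it encodes a regulator of G-protein signalling that is abundant in brain pericytes. Rgs5 stood at 54.1, 68.6, 46.6 and 43.6 CPM in ret/wt thalamus and at 17.3, 19.2, 18.2 and 22.6 CPM in ret/ret thalamus. In cortex it stood at 63.5, 63.9, 48.8 and 61.9 CPM in ret/wt and at 21.2, 13.8, 15.5 and 22.1 CPM in ret/ret. The groups were far apart in both regions. In cortex Rgs5 fell by 1.70 ± 0.20 on the log2 scale (SE; edgeR, Benjamini-Hochberg adjusted p = 0.041). In thalamus the estimate was -1.43 ± 0.19 (SE; edgeR, unadjusted p = 2.09e-05, adjusted p = 0.216), and it was called with all libraries in 1 model (edgeR, adjusted p = 0.00898) and in DESeq2 (adjusted p = 8.26e-08). The cortex call was lost without the 2 animals above (edgeR, adjusted p = 0.152) and with the replicate number as a block (0.291). Leaving out any 1 cortex library also ended it, with an adjusted p of 0.08 to 0.235 and a log2 fold change of -1.82 to -1.59 in edgeR's test. Over both regions, with the counts of an animal's libraries added up, Rgs5 fell by 1.59 ± 0.16 (SE; edgeR, Benjamini-Hochberg adjusted p = 0.014); this adjusted p was 0.0302 to 0.111 when 1 animal was left out.

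Of the 16 pericyte genes, 15 had lower estimates in ret/ret thalamus, and 11 of the 14 tested had lower estimates in ret/ret cortex. Their median log2 fold change was -0.82 in thalamus and -0.73 in cortex. At an unadjusted p under 0.05, 4 were lower in thalamus and 7 in cortex, where 0.88% and 1.14% of all genes were. Abcc9 and Kcnj8 encode the subunits of a potassium channel of pericytes, and their log2 fold changes were -1.79 and -1.71 in thalamus and -2.69 and -3.02 in cortex. The nucleotide receptor gene P2ry14 had -2.38 in thalamus and -1.57 in cortex, and the transport ATPase gene Atp13a5 had -0.98 and -1.27. Pdgfrb, the receptor for PDGF-B, had -0.47 and -0.61, and the proteoglycan gene Cspg4 had -0.00 and -0.60. Art3 had -0.37 and -1.89, Ggt1 had 0.55 and -0.78, Mcam had -0.52 and -0.23, and Cd248 had -0.65 and -0.67. Cox4i2 had -1.02 and 0.55, and Anpep had -1.09 and 0.07. Vtn, the gene of the secreted protein vitronectin, had -0.52 and 0.20. Higd1b and Ndufa4l2 were tested in thalamus only, at -1.0 and -0.36. Other cell types also had shifted estimates in ret/ret: 11 of 12 endothelial and 7 of 7 microglia genes were higher in thalamus, and 9 of 12 and 7 of 7 in cortex, and their part in the contractile gene values was not tested. Without the 2 animals named above, 15 of 16 pericyte genes were lower in thalamus and 13 of 14 in cortex.

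**Figure D2:**
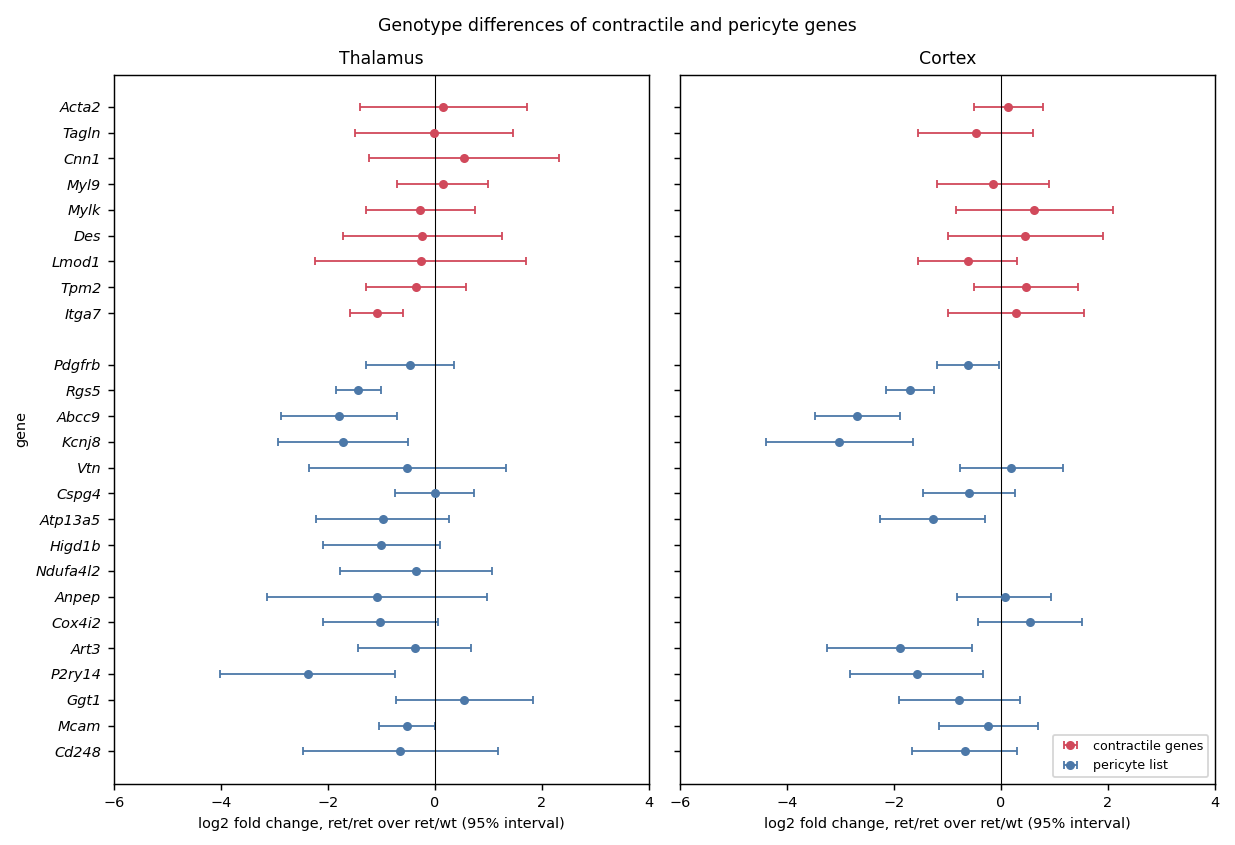
Log2 fold change of ret/ret over ret/wt (horizontal axis) for each contractile gene (red) and pericyte gene (blue) in thalamus and cortex; points are estimates and bars 95% intervals, and a missing point is a gene below the filter. The intervals of 2 of 8 contractile genes in cortex and of 1 of 9 in thalamus lie wholly above the median of the pericyte genes, -0.73 and -0.82.

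The intervals show how large a fall the data leave room for. Against the median of the pericyte genes, the 95% intervals of 2 of 8 contractile genes lay wholly above it in cortex (Acta2 and Tpm2) and of 1 of 9 in thalamus (Myl9). The lower bounds of the others reached past that median, so a fall of that size was not set apart for them. Rgs5, the pericyte gene with a call, had an estimate further down. The intervals of all 8 genes in cortex and of 5 of 9 in thalamus lay above that estimate, in part narrowly. For Acta2 in thalamus the lower bound was -1.41 against -1.43. Rgs5 was picked by its call in these same data, and its own error was left out. The counts therefore do not show that the contractile genes are set apart from the fall of Rgs5. The difference between each contractile gene and the mean log2 CPM of the 16 pericyte genes was also taken library by library, a comparison chosen after seeing the data. It was larger in ret/ret than in ret/wt for 7 of 9 genes in thalamus and for 8 of 8 in cortex. The groups did not overlap for Myl9 in thalamus (1.15 higher on the log2 scale), Acta2 in cortex (1.28 higher) and Myl9 in cortex (0.85 higher). Each of these had a two-sided exact permutation p of 0.0286, the smallest that 4 against 4 libraries can give, and 0 of the 17 comparisons passed after Benjamini-Hochberg adjustment (smallest adjusted p = 0.162). The differences share 1 subtracted score, which was itself lower in ret/ret, so they are not separate pieces of evidence.

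**Figure D3:**
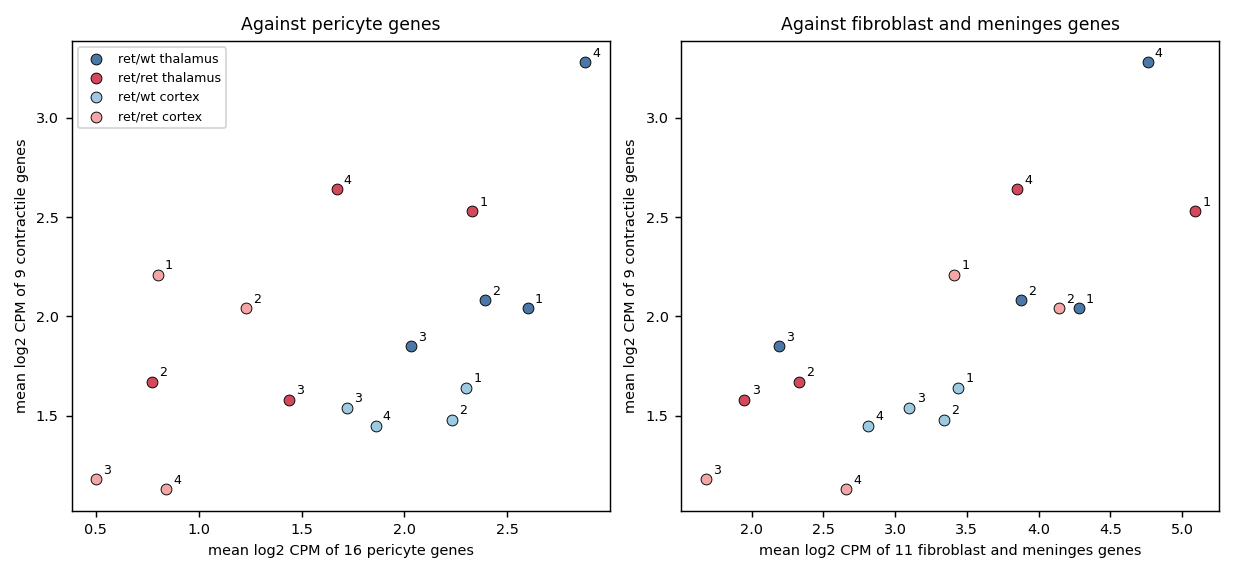
Mean log2 CPM of the 9 contractile genes (vertical axis) against that of 16 pericyte genes (left) and of 11 fibroblast and meninges genes (right); each point is a library, coloured by group and numbered by replicate. Vertically ret/wt cortex runs from 1.45 to 1.64 and ret/ret cortex from 1.13 to 2.21, while on the pericyte axis they lie apart, at 1.72 to 2.30 and 0.50 to 1.23.

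Among the filament genes, Acta2 encodes smooth muscle alpha-actin, the main thin filament protein of arteriolar muscle (ENSMUSG00000035783, chromosome 19, 34241090 to 34255590, minus strand, GRCm38). Acta2 stood at 7.30, 7.49, 3.11 and 26.6 CPM in ret/wt thalamus and at 21.0, 4.20, 5.24 and 18.7 CPM in ret/ret thalamus. It stood at 5.42, 5.11, 3.60 and 4.94 CPM in ret/wt cortex and at 3.70, 6.89, 5.26 and 4.82 CPM in ret/ret cortex. The cortex groups lay on top of each other within a narrow range, whereas in thalamus 3 libraries, ret/wt replicate 4 and ret/ret replicates 1 and 4, were well above the rest. The log2 fold change of ret/ret over ret/wt was 0.14 ± 0.29 (SE, 95% interval -0.50 to 0.78) in cortex and 0.16 ± 0.70 (SE, interval -1.41 to 1.73) in thalamus. Without ret/wt thalamus replicate 4 the thalamus value was 1.102.

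Tagln encodes transgelin, an actin-binding protein of smooth muscle (ENSMUSG00000032085, chromosome 9, 45929619 to 45936058, minus strand). Tagln stood at 4.75, 5.10, 2.75 and 19.4 CPM in ret/wt thalamus and at 10.8, 4.02, 3.20 and 13.3 CPM in ret/ret thalamus. The same 3 thalamus libraries were the highest as for Acta2. In cortex Tagln stood at 5.65, 10.8, 3.30 and 4.18 CPM in ret/wt and at 6.97, 4.49, 3.69 and 1.82 CPM in ret/ret, with overlapping groups. Its log2 fold change was -0.02 ± 0.66 (SE) in thalamus and -0.47 ± 0.48 (SE) in cortex, where leaving out 1 library gave -0.82 to -0.0401. Without ret/wt thalamus replicate 4 the thalamus value was 0.96.

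Calponin, encoded by Cnn1 (ENSMUSG00000001349, chromosome 9, 22099216 to 22109630, plus strand), binds actin and holds back myosin. Cnn1 was scarce, at 0.91, 0.39, 1.20 and 3.42 CPM in ret/wt thalamus and at 0.62, 3.44, 0.63 and 3.82 CPM in ret/ret thalamus. In cortex it was nearly absent, at 0.08, 0.00, 0.13 and 0.38 CPM in ret/wt and at 1.53, 0.44, 0.15 and 0.26 CPM in ret/ret. Cnn1 had 0 to 7 counts in the ret/wt cortex libraries, and the library at 0 allows a level of up to 0.219 CPM, counting error only. It did not pass the filter in the cortex comparison of genotypes and was not tested there. Its log2 fold change in thalamus was 0.54 ± 0.80 (SE), and 0.09 to 1.40 when 1 library was left out, and the groups overlapped.

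The remaining filament genes were Tpm2, Lmod1 and Des. Tpm2 encodes beta-tropomyosin, which runs along the thin filament (ENSMUSG00000028464, chromosome 4, 43514711 to 43523765, minus strand). Tpm2 stood at 9.24, 9.04, 13.3 and 27.9 CPM in ret/wt thalamus and at 12.2, 11.1, 6.498 and 16.3 CPM in ret/ret thalamus. In cortex it stood at 5.10, 6.80, 7.65 and 4.13 CPM in ret/wt and at 13.7, 10.5, 4.67 and 3.58 CPM in ret/ret. Genotype groups overlapped in both regions, with log2 fold changes of -0.35 ± 0.42 (SE) in thalamus and 0.47 ± 0.44 (SE) in cortex. Lmod1, the gene of a leiomodin that starts new actin filaments (ENSMUSG00000048096, chromosome 1, 135324807 to 135368065, plus strand), stood between 0.66 and 2.003 CPM in ret/wt thalamus. In ret/ret thalamus Lmod1 split, at 1.77 and 1.96 CPM in replicates 1 and 4 and at 0.04 and 0.19 CPM in replicates 2 and 3. It stood at 0.65 to 1.14 CPM in ret/wt cortex and at 0.44 to 0.73 CPM in ret/ret cortex, with log2 fold changes of -0.26 ± 0.89 (SE) in thalamus and -0.62 ± 0.41 (SE) in cortex. Des encodes desmin, the intermediate filament protein of muscle (ENSMUSG00000026208, chromosome 1, 75360329 to 75368579, plus strand). Des ranged from 0.69 to 4.01 CPM in ret/wt thalamus, 0.58 to 2.33 CPM in ret/ret thalamus, 0.43 to 2.20 CPM in ret/wt cortex and 0.52 to 3.27 CPM in ret/ret cortex. Its log2 fold changes were -0.24 ± 0.67 (SE) in thalamus and 0.46 ± 0.65 (SE) in cortex, and the groups overlapped.

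The 2 genes of the myosin regulatory pathway were Myl9 and Mylk. Myl9 encodes the regulatory light chain of smooth muscle myosin (ENSMUSG00000067818, chromosome 2, 156775420 to 156781658, plus strand). Myl9 stood at 5.74, 7.65, 3.59 and 12.02 CPM in ret/wt thalamus and at 9.31, 5.59, 9.55 and 7.14 CPM in ret/ret thalamus. In cortex it stood at 6.28, 8.33, 5.23 and 3.69 CPM in ret/wt and at 3.20, 11.03, 3.40 and 3.26 CPM in ret/ret. The highest ret/ret cortex value was that of replicate 2, the library with cerebellum genes, and the other 3 lay below all ret/wt values. The log2 fold change of Myl9 was 0.15 ± 0.38 (SE) in thalamus and -0.14 ± 0.47 (SE) in cortex, and the cortex value was -0.82 without ret/ret cortex replicate 2.

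Mylk encodes myosin light chain kinase, which phosphorylates that light chain and so starts contraction (ENSMUSG00000022836, chromosome 16, 34745210 to 35002420, plus strand). Mylk stood at 9.93, 9.87, 23.7 and 7.43 CPM in ret/wt thalamus and at 12.6, 16.3, 4.46 and 7.75 CPM in ret/ret thalamus. In cortex it stood at 11.1, 10.8, 8.09 and 23.8 CPM in ret/wt and at 55.9, 8.24, 9.13 and 9.44 CPM in ret/ret. A single library was high in 3 of the 4 groups, and these were not the libraries in which Acta2 was high. The log2 fold change was -0.27 ± 0.46 (SE) in thalamus and 0.63 ± 0.66 (SE) in cortex. Without ret/ret cortex replicate 1 the cortex value was -0.58.

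Itga7 was the contractile gene whose genotype groups did not overlap in thalamus. It encodes the alpha7 integrin chain, a laminin receptor that anchors muscle cells to their basement membrane (ENSMUSG00000025348, chromosome 10, 128933818 to 128958282, plus strand). Itga7 stood at 20.4, 17.6, 14.8 and 19.96 CPM in ret/wt thalamus and at 8.999, 8.94, 9.41 and 6.04 CPM in ret/ret thalamus. Every ret/ret value lay below every ret/wt value, as held for 1.03% of all genes tested in that direction. The log2 fold change was -1.09 ± 0.22 (SE, 95% interval -1.59 to -0.60), which did not pass in edgeR (unadjusted p = 0.000579, Benjamini-Hochberg adjusted p = 0.629). Over the alternatives tried it stayed between -1.21 and -0.97, with adjusted p-values from 0.00407 in DESeq2 to 1.0 in edgeR. In ret/ret thalamus replicate 4, where Acta2 was high at 18.7 CPM, Itga7 had its lowest value of the region.

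In cortex Itga7 stood at 7.54, 6.80, 14.95 and 7.11 CPM in ret/wt and at 3.49, 25.5, 5.73 and 8.92 CPM in ret/ret. The highest value of each genotype came from the library with cerebellum genes, and the part of that tissue in the values was not tested. The log2 fold change was 0.29 ± 0.57 (SE), -0.58 without ret/ret cortex replicate 2, and -0.23 without both animals. The difference between the genotype effects of the regions, tested as an interaction, was -1.39 ± 0.65 on the log2 scale (SE; edgeR, unadjusted p = 0.048, Benjamini-Hochberg adjusted p = 1.0). It was therefore not shown that the genotype effect on Itga7 differed between thalamus and cortex. Of the 9 contractile genes, 0 passed the interaction at an adjusted p under 0.05, where 0% of all 15286 genes did, and 1 was under an unadjusted 0.05, where 1.6% of all genes were. The interaction was positive for 4 of the 9, where it was for 44.4% of all genes.

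Over both regions, with each animal counted once, 5 contractile genes were higher and 4 lower in ret/ret, where 46.6% of all genes were higher. In edgeR 0 of the 9 passed after adjustment, where 0.0129% of all genes did, and 0 were under an unadjusted 0.05, where 5.13% of all genes were. The animals of the genotypes overlapped for all 9, while 3.38% of all genes had groups apart. The log2 fold changes were 0.29 ± 0.47 for Acta2, -0.06 ± 0.44 for Tagln, 0.06 ± 0.24 for Myl9 and -0.53 ± 0.30 for Itga7 (SE). Those of Cnn1, Mylk and Des were 0.80 ± 0.69, 0.15 ± 0.41 and 0.10 ± 0.40, and those of Tpm2 and Lmod1 were -0.02 ± 0.30 and -0.32 ± 0.57 (SE). The interval of Myl9, the narrowest, ran from -0.47 to 0.60.

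Levels were compared between genes per kilobase of exon. Myl9 had the highest mean level in all 4 groups, from 7.003 ± 1.67 CPM per kilobase in ret/ret thalamus to 4.63 ± 3.44 in ret/ret cortex (SD, n = 4). In ret/wt thalamus it was followed by Tpm2 at 6.23 ± 3.73, Acta2 at 5.47 ± 5.17, Tagln at 5.01 ± 4.80 and Itga7 at 4.39 ± 0.63 CPM per kilobase (SD, n = 4), neighbours that did not differ beyond their spread. Mylk followed at 1.57 ± 0.91, and Des, Cnn1 and Lmod1 came last at 0.59 ± 0.51, 0.59 ± 0.53 and 0.31 ± 0.14 CPM per kilobase (SD, n = 4). In ret/wt cortex the order was Myl9 (5.22 ± 1.73), Tagln (3.75 ± 2.11), Tpm2 (2.48 ± 0.67), Acta2 (2.34 ± 0.39), Itga7 (2.19 ± 0.94), Mylk (1.66 ± 0.87), Des (0.39 ± 0.24), Lmod1 (0.22 ± 0.06) and Cnn1 (0.06 ± 0.07). Reads shared with near-identical copies can shift such levels, and at most 1.39% of the 31-base words of a contractile gene (Acta2) occurred in transcripts of another gene.

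The regions were compared within each genotype. In ret/wt animals 7 of the 8 contractile genes tested had higher estimates in thalamus than in cortex, where 52.2% of all genes did. Other vessel-associated lists leaned the same way, with 13 of 16 pericyte, 11 of 12 endothelial and 9 of 11 fibroblast and meninges genes higher in thalamus. After adjustment 1 of 8 was called, where 12.6% of all genes were, and 3 of 8 were under an unadjusted 0.05, where 27% of all genes were. Itga7 was the called gene: it rose by 1.01 ± 0.29 on the log2 scale from cortex to thalamus (SE; edgeR, Benjamini-Hochberg adjusted p = 0.0487). That call depended on the fit, since the adjusted p in edgeR was 0.0805 with the animal as a block, 0.164 with all libraries in 1 model, 0.0636 with no filter and 0.00626 to 0.137 when 1 library was left out. It held without ret/wt cortex replicate 3 and was lost without any other single library. Without the 2 animals that stood apart the log2 fold change was 1.45 (edgeR adjusted p = 0.00836). Tpm2 had 9.04 to 27.9 CPM in thalamus and 4.13 to 7.65 CPM in cortex of ret/wt animals, groups that did not overlap, as held for 19.9% of all genes. Its log2 fold change was 1.35 ± 0.41 (SE) and did not pass in edgeR (Benjamini-Hochberg adjusted p = 0.0557). Without ret/wt thalamus replicate 4 the value for Tpm2 was 0.83. Acta2 had 1.25 ± 0.56 (SE; unadjusted p 0.0496, adjusted p 0.184 in edgeR) and only 0.32 without that same library. The others were Tagln at 0.45 ± 0.61, Des at 0.62 ± 0.67, Lmod1 at 0.50 ± 0.47, Myl9 at 0.32 ± 0.41 and Mylk at -0.07 ± 0.43 (SE).

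Cnn1 was below the filter in ret/wt animals, at 0.39 to 3.42 CPM in thalamus and 0.00 to 0.38 CPM in cortex, groups that only just stayed apart. Settings that did test it called it higher in thalamus with no filter (log2 fold change 3.2; edgeR, adjusted p = 0.047) and with all libraries in 1 model (3.19; 0.0465). It was also called without ret/wt thalamus replicate 2 (3.52; 0.036) and without ret/wt cortex replicate 4 (4.15; 0.0318), and not without ret/wt cortex replicate 1, 2 or 3 (adjusted p 0.0878 to 0.114). These fold changes rest on 0 to 7 counts in cortex. Over the alternatives, 1178 to 2587 of all genes were called between regions in ret/wt.

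In ret/ret animals 6 of 9 contractile genes had higher estimates in thalamus than in cortex, where 48.7% of all genes did. So did 13 of 14 pericyte, 10 of 12 endothelial and 9 of 11 fibroblast and meninges genes. After adjustment 0 were called, where 9.5% of all genes were, and 1 was under an unadjusted 0.05, where 26.7% of all genes were. Groups of regions overlapped for all 9, while they lay apart for 17.5% of all genes. That gene was Acta2, at 1.25 ± 0.52 on the log2 scale (SE; edgeR, unadjusted p = 0.0397, Benjamini-Hochberg adjusted p = 0.164). Cnn1 had 1.89 ± 0.88, Tagln 0.89 ± 0.54, Lmod1 0.83 ± 0.91, Myl9 0.60 ± 0.45 and Tpm2 0.52 ± 0.45 (SE). Mylk had -1.0 ± 0.68, Itga7 -0.39 ± 0.54 and Des -0.09 ± 0.64 (SE). Without the 2 animals that stood apart, 2 of the 9 genes were called. That fit called 2564 of all genes tested, against 1398 of 14715 in the main fit. Acta2 rose by 1.72 and Myl9 by 1.41 on the log2 scale (edgeR, adjusted p = 0.0473 and 0.0117). Myl9 alone was also called without ret/ret cortex replicate 2, at 1.29 with an adjusted p of 0.0221 in edgeR. The fits without 1 library called 627 to 2007 of all genes in this comparison. In thalamus this comparison also sets calcifications against tissue without them.

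**Figure D4:**
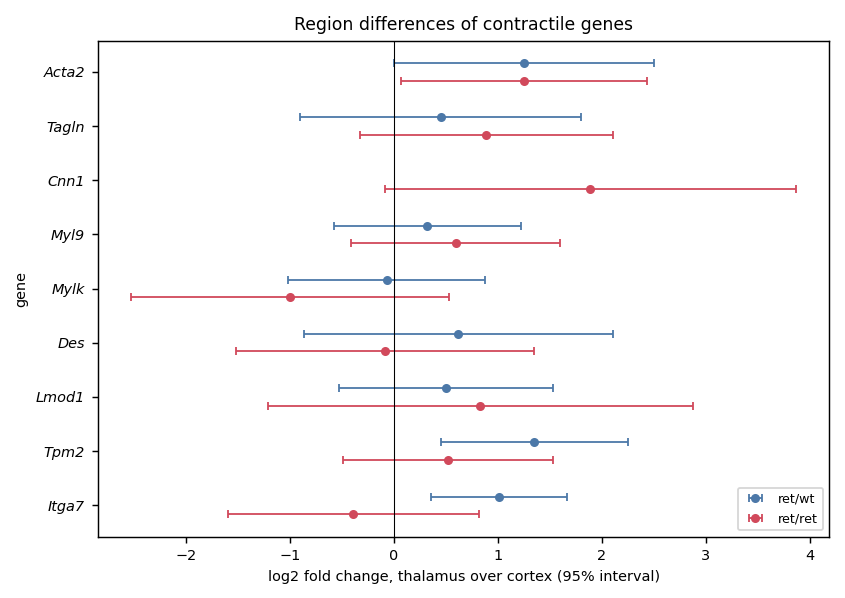
Log2 fold change of thalamus over cortex (horizontal axis) for each contractile gene within ret/wt (blue) and ret/ret (red) animals; points are estimates and bars 95% intervals, and Cnn1 was not tested in ret/wt. Itga7 and Tpm2 have ret/wt intervals above 0, at 0.36 to 1.66 and 0.45 to 2.25.

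The thalamus library with the most Acta2 in each genotype also held the most fibroblast and meninges RNA. The summed level of the 11 genes of that list was 338, 234, 75.3 and 520 CPM in ret/wt thalamus and 587, 97.7, 88.4 and 275 CPM in ret/ret thalamus. The highest library of each genotype was therefore the same for this list as for Acta2, ret/wt replicate 4 and ret/ret replicate 1. In cortex the sums ran from 151 to 197 CPM in ret/wt and from 59.5 to 297 CPM in ret/ret, and 11 of the 11 genes were tested. Of the list, 4 genes were higher and 7 lower in ret/ret thalamus and 0 passed the test. Ret/wt thalamus replicate 1 held more of this RNA than ret/ret thalamus replicate 4, with a lower Acta2 level. Ret/wt replicate 4 and ret/ret replicate 1 were also the highest thalamus libraries of their genotype for the pericyte list, at 385 and 261 CPM. The same held for the endothelial list, at 370 and 569 CPM, and the choroid plexus list, at 86.4 and 86.3 CPM. The part of these cell types, of meninges and of large surface vessels in the Acta2 and Tagln values was not tested.

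Across the 16 libraries Acta2 and Tagln had a Pearson correlation of log2 CPM of 0.77, Tagln and Tpm2 of 0.66 and Acta2 and Myl9 of 0.65. Mylk ran against part of the set, at -0.61 with Myl9, -0.45 with Itga7 and -0.39 with Acta2. It had little correlation with Tagln (-0.04) and Tpm2 (0.09). Itga7 also followed the set only in part, at 0.49 with Myl9, 0.28 with Tpm2, 0.20 with Acta2 and -0.09 with Tagln. These are descriptions over libraries that share animals and groups. Of 12649 other genes, those with the pattern most like the mean of the 6 contractile genes at a mean log2 CPM of at least 1 were Vstm4 (r = 0.904), Vtn (0.898), Wfdc1 (0.877), Angptl4 (0.873) and Serping1 (0.872). Vtn belonged to the pericyte list. Like Acta2 it was highest in ret/wt thalamus replicate 4, at 221 CPM, and in ret/ret thalamus replicate 1, at 146 CPM, against 15.4 to 68.9 CPM in the other thalamus libraries.

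Smooth muscle genes are switched on through CArG boxes, short elements bound by serum response factor together with myocardin. The 250 bases upstream of the RefSeq start (build GRCm38.p6) were searched for 7 contractile genes, because some contractile genes varied together over libraries. Pairs among Acta2, Tagln, Myl9 and Tpm2 had Pearson correlations of 0.46 to 0.77, while pairs with Mylk or Itga7 had -0.61 to 0.49. Whether such boxes have a part in this variation was not tested. The table held no entry for Tagln and Itga7. A CArG box with a single central G or C allowed, which reads the same on both strands, was found in Acta2 and Myl9. None was found in Cnn1, Mylk, Des, Lmod1 and Tpm2. For Mylk the bases searched, chr16:34784700-34784949, lie inside the gene, which GENCODE starts at 34745210. The bases upstream of that GENCODE start were not searched. Such a match occurred in 9.78% of all 27025 genes, and the strict box, found in Myl9, in 1.62%. The matches are shown with 10 bases on either side, 5′ to 3′ on the strand of the gene, with the box in capitals. The Acta2 boxes begin 84 and 34 bases before the RefSeq start, at chr19:34255438-34255467 and chr19:34255388-34255417 on the minus strand, within the first exon as GENCODE draws it. The Myl9 boxes begin 161 and 99 bases before the start, at chr2:156775293-156775322 and chr2:156775355-156775384 on the plus strand, and the first of them is the strict box.
Acta2 box 1: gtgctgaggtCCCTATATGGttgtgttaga
Acta2 box 2: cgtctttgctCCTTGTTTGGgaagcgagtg
Myl9 box 1: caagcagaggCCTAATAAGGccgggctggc
Myl9 box 2: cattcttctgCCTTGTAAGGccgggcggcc

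The regulators of smooth muscle genes were tested as a list of 10, of which 8 passed the filter. None had an adjusted p under 0.05 in either region. In thalamus 3 were higher and 5 lower in ret/ret, and in cortex 1 was higher and 7 lower. Heyl, a target of Notch signalling in mural cells, had a log2 fold change of -0.90 ± 0.36 in thalamus (SE; unadjusted p 0.0313, adjusted p 1.0 in edgeR) and -1.74 ± 0.84 in cortex. Notch3, the mural cell Notch receptor, had -0.40 ± 0.36 and -0.62 ± 0.42 (SE). Tbx18, a mural cell transcription factor, had -1.37 ± 0.72 in thalamus, and Srf, the gene of serum response factor, had -0.46 ± 0.18 in cortex (SE; unadjusted p 0.0315, adjusted p 0.999 in edgeR). All of these groups overlapped.

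Among 15 further contractile and cytoskeletal genes tested, 8 were higher and 7 lower in ret/ret thalamus, and 9 were higher and 6 lower in ret/ret cortex, with 0 passing the adjusted threshold. Their median log2 fold changes were 0.00 and 0.14. Synpo2, which encodes an actin-bundling protein, stood at 6.12, 4.17, 4.88 and 5.32 CPM in ret/wt cortex and at 11.1, 11.1, 7.27 and 7.55 CPM in ret/ret cortex. Those groups did not overlap, as held for 1.58% of all genes in that direction, and the log2 fold change was 0.87 ± 0.26 (SE; unadjusted p 0.00727, adjusted p 0.965 in edgeR). In thalamus Synpo2 ran from 8.85 to 316 CPM in ret/wt and from 9.17 to 300 CPM in ret/ret. The largest differences otherwise were Nexn at 0.91 ± 0.84 and Casq2 at 0.67 ± 1.36 in cortex, and Rbpms2 at 0.53 ± 0.39, Casq2 at -0.50 ± 0.52 and Vcl at 0.46 ± 0.28 in thalamus (SE).

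The genes of vessel tone signalling act on contraction through calcium, cGMP and receptors. Of 19 tested in thalamus, 10 were higher and 9 lower in ret/ret, and of 17 tested in cortex, 10 were higher and 7 lower, with 0 past the adjusted threshold and 0 under an unadjusted 0.05 in both. Trpc6, a cation channel gene, had 0.54 ± 0.39 in thalamus and -1.06 ± 0.50 in cortex (SE). Pde5a, the gene of a phosphodiesterase that breaks down cGMP, had 0.46 ± 0.43 and 0.64 ± 0.74 (SE). Ednrb, an endothelin receptor gene, had 0.43 ± 0.27 in thalamus, and Cacna1c, the L-type calcium channel gene, had -0.63 ± 0.32 in cortex (SE).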

How the data were processed

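RNA of 16 brain libraries from 8 mice was sequenced with a stranded protocol, per the labels' protocols. The deposited values are expected counts per Ensembl gene, estimated by the authors with kallisto 0.44.0, and GRCm38.p6 is the build named, both per the submitters' processing notes. How transcripts were summed to genes is not given in the sources used here. All nonzero expected counts were fractional, and they were rounded to whole numbers. Symbols came from GENCODE M21, matched for 21581 of 21804 genes.

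Genes were filtered with filterByExpr (minimum count 10, minimum total 15), TMM-scaled and tested with edgeR 4.0.16 in R 4.3.3 by its quasi-likelihood test, adjusted by Benjamini-Hochberg at 0.05 over all genes tested. A comparison of 2 groups used only the 8 libraries it concerns, the sum over regions on 8 animals and the interaction on all 16 libraries. Log2 CPM used a prior count of 1. Exact permutation tests used scipy 1.17.1. The pipeline was tested on simulated data. Alternatives were DESeq2 1.42.0, library size alone, no filter, a minimum count of 30, robust estimation, a replicate block, all libraries in 1 model, leaving out libraries in turn, and leaving out 2 animals.

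The members and the lists of genes were chosen with earlier results of these data known. The cerebellum list, and the comparison of each member with the pericyte genes, were chosen after seeing the data. All members were named. Of the pericyte list every tested gene was named, of 3 other smooth muscle lists the 3 largest differences per region, and by likeness the 5 closest genes. Of 152 list genes, 3 (Myh11, Gata6 and Mb) were not analysed here. Within a group the libraries are from separate animals, and the animal letters in the labels pair the regions of a genotype; the residuals of an animal's libraries had a mean correlation of 0.0745 across genes (-0.0171 to 0.239). No libraries of a group agreed within sampling noise. P-values of the main comparisons between genotypes measure the spread between animals. The main fits between regions and of the interaction had no term for the animal. They treated the cortex and thalamus libraries of an animal as independent, so their p-values are unpaired. Within a genotype the replicate block, an alternative, pairs these libraries. Counting floors cover counting error only.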

Additional observations from a re-analysis of the deposited data

Results flagged for a closer look

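A value was taken up here when a library lay so far from the other 3 of its group that the gap took more than the 95% critical share of the group's range. This was tested in 36 sets of 4 libraries and held in 6. The critical share gives about 1 in 20 by chance only for independent, normally spread values. The CPM values were not transformed and the sets share libraries, so 6 of 36 cannot be read as an excess over chance. Tagln in ret/wt thalamus replicate 4 was at 19.4 CPM, against 2.75 to 5.10 CPM in the others. Myl9 in ret/ret cortex replicate 2 was at 11.03 CPM, against 3.20 to 3.40 CPM. Mylk in ret/wt thalamus replicate 3 was at 23.7 CPM, against 7.43 to 9.93 CPM. Mylk in ret/ret cortex replicate 1 was at 55.9 CPM, against 8.24 to 9.44 CPM. Itga7 in ret/ret thalamus replicate 4 was low, at 6.04 CPM, against 8.94 to 9.41 CPM. Itga7 in ret/wt cortex replicate 3 was at 14.95 CPM, against 6.80 to 7.54 CPM. The Myl9 and Itga7 values in cortex came from libraries with cerebellum genes, and the part of that tissue was not tested. Myl9 was not high in the other such library, ret/wt cortex replicate 3, at 5.23 CPM.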

How the results depend on the processing

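Precision is limited by 4 animals a genotype and, for Lmod1 (1 to 40 counts in ret/ret thalamus) and Cnn1 (0 to 7 counts in ret/wt cortex), by low counts. DESeq2 called 38 genes in thalamus, 39 in cortex, 2591 between regions in ret/ret, 2587 in ret/wt, 80 over both regions and 4 in the interaction, against 0, 3, 1398, 1813, 2 and 0 in edgeR's test; among them it called 1 contractile gene in thalamus (Itga7) and 2 between regions in ret/wt. Library size alone and a minimum count of 30 each called 2 contractile genes between regions in ret/wt. All libraries in 1 model called 3 genes in thalamus and 7 in cortex. The replicate block left 0 genes in cortex, 0 over both regions and 0 contractile genes between regions in ret/wt, and changed no other call of a contractile gene; across genotypes the numbers join different animals. Without the 2 animals with Y-linked reads there were 1 gene in cortex, 0 over both regions and 2564 between regions in ret/ret, with 2 contractile genes. Leaving out 1 library gave 0 to 2 genes in cortex, 627 to 2007 between regions in ret/ret (0 to 1 contractile genes), 1178 to 1797 between regions in ret/wt (0 to 2 contractile genes) and 1 to 2 over both regions. Where a cause is not given here, the cause was not tested.

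Of 875 refitted log2 fold changes of contractile genes, 787 kept direction and side of the threshold, 69 reversed, 10 lost and 9 gained a call. With the replicate block the signs turned for Tagln in thalamus (0.15), Itga7 in cortex (-0.0722), Des between regions in ret/ret (0.0437), Mylk over both regions (-0.0663) and Lmod1 in the interaction (-0.42). Without the 2 animals they turned for Acta2 (-0.15) and Itga7 (-0.23) in cortex, Des (0.25) and Itga7 (0.45) between regions in ret/ret, and Myl9 over both regions (-0.20). No filter gave Tpm2 over both regions 0.0157, and library size alone gave Acta2 in the interaction -0.0361. Of the differences from the pericyte score, 31 of 34 values over both regions kept direction. The side of the threshold was compared only with Rgs5 as the reference, and not for the values without the 2 animals. In thalamus Lmod1 turned to 0.32 and Itga7 to 0.31 with Rgs5 as the reference, whose fall is added to every such difference, and Lmod1 to 0.27 without the 2 animals.

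Leaving out 1 library or animal turned signs within these ranges. In thalamus they were -0.24 to 1.102 for Acta2, -0.52 to 0.56 for Des, -0.81 to 0.14 for Lmod1, -0.0784 to 0.53 for Myl9, -0.58 to 0.22 for Mylk, -0.40 to 0.96 for Tagln and -0.56 to 0.18 for Tpm2. In cortex they were -0.035 to 0.26 for Acta2, -0.12 to 0.92 for Des, -0.58 to 0.62 for Itga7, -0.82 to 0.0518 for Myl9 and -0.58 to 1.07 for Mylk. Over both regions they were -0.22 to 0.33 for Des, -0.0581 to 0.18 for Myl9, -0.45 to 0.41 for Mylk, -0.30 to 0.29 for Tagln and -0.15 to 0.21 for Tpm2. In the interaction they were -0.37 to 0.92 for Acta2, -1.14 to 0.0715 for Des, -0.21 to 0.75 for Lmod1 and -1.35 to 0.28 for Mylk. Between regions they were -0.38 to 0.52 for Des, -0.66 to 0.49 for Itga7 and -1.29 to 0.23 for Mylk in ret/ret, and -0.16 to 1.07 for Des, -0.0543 to 0.55 for Myl9, -0.56 to 0.36 for Mylk and -0.51 to 0.89 for Tagln in ret/wt.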
